A study of Homo sapiens with 8 samples.

Results

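ZR-75-1 cells that carried a control shRNA against GFP (shGFP) were compared with parental ZR-75-1 cells, to which no shRNA had been given. ZR-75-1 cells derive from a luminal breast carcinoma and express the estrogen receptor. GFP, a jellyfish protein, has no gene in them, so the hairpin has no intended target there. The comparison rests on 4 arrays, 2 of shGFP cells (shGFP #1 and #2) and 2 of parental cells (parental #1 and #2), out of 8 in the series. The other 4 arrays came from 2 shEI24 clones, in which an shRNA is directed against EI24, a p53-induced gene. The sample labels name no chemical treatment, and the culture medium described for these cells contained serum. Whether a selection drug was given to the shRNA lines and not to parental cells could not be checked here. Total RNA was hybridized to Affymetrix arrays. No source used here says whether the shGFP line is 1 clone or a pool of infected cells, how many passages lay between the lines, or whether arrays of the same line stand for separate cultures. The p-values therefore cover the spread between arrays and no more, and this spread may be technical. The hairpin, the act of making the line and the choice of cells cannot be told apart. The members were 18417 genes, each by 1 transcript cluster (the probes that cover 1 transcript locus), the brightest of those with a single gene symbol. The number of arrays limits the precision.

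Cells that run short of an amino acid, or whose endoplasmic reticulum is overloaded, phosphorylate the initiation factor eIF2α, which slows translation in general but raises translation of the transcription factor ATF4. ATF4 and its partners of the C/EBP family then switch on amino acid transporters, synthetic enzymes and aminoacyl-tRNA synthetases. Cholesterol synthesis is governed by SREBP factors, which stay in the endoplasmic reticulum while sterols are plentiful, held there by INSIG proteins and released with SCAP. A proliferating cell turns on its DNA replication genes through E2F factors before S phase and its mitotic genes later. Integrins and focal adhesions link the actin cytoskeleton to the matrix outside the cell.

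The arrays of a line were close to each other. The correlation of log2 values across genes was 0.9978 between the 2 shGFP arrays and 0.9958 between the 2 parental arrays, and 0.9885 to 0.9897 between an shGFP and a parental array. Genes are not independent replicates, so these values are descriptions. The median log2 value of these 4 arrays, over all transcript clusters, was 7.28 to 7.36. EI24 itself had log2 values of 11.97 and 11.91 in shGFP and 12.08 and 12.09 in parental cells, a log2 difference of -0.15 that did not pass the test (standard error 0.10, adjusted p = 0.43 from limma). None of 11 housekeeping genes passed the test in limma, 1 had an unadjusted p under 0.05, and their log2 differences ran from -0.22 to 0.14. Luminal genes were bright in both lines, with a median log2 value over 24 genes of 10.33 to 10.70 in the 4 arrays. The lists of basal, fibroblast, leukocyte and endothelial markers had medians of 5.93 to 7.0. In bulk RNA, fewer cells of a type and less RNA per cell cannot be told apart.

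Between shGFP and parental cells 592 genes were higher and 1370 lower at an adjusted p under 0.05 from limma, which was 3.21% and 7.44% of the genes tested. Most of these differences were small. The median size of a called log2 difference was 0.51, the smallest 0.30, and a 2-fold difference was reached by 57 higher and 76 lower genes (0.309% and 0.413%). The count depends on each array, since 2 arrays a line leave little room. It was 598 without parental #1, 854 without parental #2, 496 without shGFP #1 and 394 without shGFP #2, in fits that assume the lone array varies like those of the other lines. Of the 133 genes called with at least a 2-fold difference, 123 were called without each of the 4 arrays in turn, 51 of them higher and 72 lower. Of all 1962 called genes, 338 were: 120 higher and 218 lower. Genes that were higher made up 30.2% of the calls, and 44.0% after a second quantile normalization, with 990 higher and 1261 lower. That the arrays of both lines do not overlap is no rarity here, because it held for 10195 genes, or 55.4%.

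The genes with the largest rises were a mixture of stress genes and cell surface genes. SLITRK6, a transmembrane protein of neurons and sensory epithelia (chromosome 13, 85792790 to 85799419 in GRCh38.p14), had log2 values of 11.16 and 11.06 in shGFP and 7.91 and 7.80 in parental cells, a log2 difference of 3.26 or 9.55-fold (standard error 0.12, limma adjusted p = 1.1e-05). NRCAM, a neuronal cell adhesion molecule, had 10.47 and 10.45 against 7.98 and 7.80, a difference of 2.57. In both genes the shGFP arrays lay far above both parental arrays, and far above all shEI24 arrays, whose mean lay below shGFP by log2 differences of -6.46 for SLITRK6 and -4.02 for NRCAM. SULF1, which removes sulfate groups from heparan sulfate, rose by 1.76, and ULBP1, a stress ligand of natural killer cells, by 1.74. TEX19, a gene of germ cells, rose by 1.93 and SIDT1, a transmembrane protein of the family that takes up RNA in worms, by 1.8. The other 6 of the 12 largest rises were SLC7A11, NUPR1, DDIT3, DDIT4, ASNS and CHAC1, all of them members of the ATF4 list.

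The largest falls included receptors and surface proteins. UNC5C, a netrin receptor, had log2 values of 7.35 and 7.19 in shGFP and 10.10 and 9.87 in parental cells, a log2 difference of -2.72 or 6.57-fold (standard error 0.12, limma adjusted p = 2.1e-05). NPY5R, a neuropeptide Y receptor, had 6.06 and 6.12 against 8.54 and 8.69, and ABCG2, a drug efflux pump, 7.28 and 7.21 against 9.34 and 9.37. Each of these genes was low in both shGFP arrays, and the gap between the lines was many times the gap within a line. SDR42E1, a short-chain dehydrogenase, differed by -2.41 and TARP, which is read from the T cell receptor gamma locus, by -2.37. TMPRSS4, a membrane serine protease, differed by -2.20, the membrane metalloprotease MMP16 by -2.15 and the guanylate cyclase subunit GUCY1A2 by -2.04. TFPI, an inhibitor of coagulation, differed by -1.94, the SLIT receptor ROBO1 by -1.79 and the protocadherin PCDHB8 by -1.77. For NPY5R, SDR42E1, MMP16, CAV1, GUCY1A2 and PCDHB8 the shGFP level lay in the dimmest 25% of genes, where differences are compressed, so their folds are lower bounds. The same holds for SESN3, CDH11, HERC5, CCL2 and TGFBR3 below, of which CDH11 and CCL2 were dim in parental cells too, at percentiles 25.3 and 27.9. EDIL3 and SAMD9 lay in the dimmest 25% in both lines, at 9.78 and 6.0 in shGFP and 16.5 and 11.8 in parental cells. For them no bound is given, and whether either line expresses them is open. PCDHB8 belongs to a cluster of near-identical genes whose probes may not separate them, and the same holds for TARP. All 24 genes were called without each of the 4 arrays in turn.

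Genes of the ATF4 response were higher in shGFP cells as a group. Of 52 measured genes, 41 rose and 1 fell, and the other 10 missed the threshold, against 3.21% and 7.44% of all genes, and their median log2 difference was 0.58 against -0.03. SLC7A11, the cystine transporter xCT (chromosome 4, 138164097 to 138242349), had log2 values of 11.55 and 11.58 in shGFP and 8.48 and 8.21 in parental cells, a log2 difference of 3.22 or 9.31-fold (standard error 0.12, limma adjusted p = 1.1e-05). NUPR1, a small stress-induced chromatin protein, had 11.46 and 11.42 against 8.75 and 8.64, a difference of 2.75 or 6.71-fold. The arrays of each line lay close together in both genes, and no parental array came near an shGFP array. ASNS, asparagine synthetase (chromosome 7, 97851677 to 97928441), had 11.13 and 11.14 in shGFP and 9.13 in each parental array, a 4.01-fold rise.

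The promoters of some of these genes hold the element that ATF4 binds with a C/EBP partner. The search used the letters TGATGNAAN, with N for any base, on both strands of RefSeq promoters in GRCh38.p14 (250 bases before to 50 after the start). Of the 52 genes, 43 had a promoter in the table, and 13 of these 43, or 30.2%, held the letters, against 2.54% of 14239 promoters of measured genes and 3.67% of all 27305. Of the 13 genes with the letters 8 rose, and of all 43 with a promoter 32 rose. The rise was thus neither limited to genes with the letters nor more frequent among them. The list was made of ATF4 response genes, so the share with the letters describes the list and not the change. A match is a description of these letters and not of a bound site, and matches to different motifs can overlap. The stretches around the match are shown for the 4 genes that rose and hold it before the start, as examples of the element in genes of the list. They are written 5′ to 3′ on the strand of the gene in lower case, with the match in capitals, at chr7:97872443-97872501 (minus strand) for ASNS, chr15:40953236-40953294 (plus strand) for CHAC1, chr16:70289661-70289719 (minus strand) for AARS1 and chr9:92293698-92293736 (minus strand) for IARS1.
ASNS: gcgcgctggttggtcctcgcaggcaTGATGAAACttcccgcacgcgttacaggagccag
CHAC1: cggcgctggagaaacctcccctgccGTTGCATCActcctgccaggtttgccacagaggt
AARS1: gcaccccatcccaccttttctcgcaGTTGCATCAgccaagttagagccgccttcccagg
IARS1: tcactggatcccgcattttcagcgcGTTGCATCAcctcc
In ASNS the match reads along the strand of the gene, and in the other 3 it reads on the opposite strand.

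Of the transcription factors of the response and their feedback regulators, 8 of 11 rose and 1 fell. ATF4 itself had log2 values of 10.72 and 10.68 in shGFP and 10.25 and 10.07 in parental cells, a difference of 0.54 (standard error 0.10, adjusted p = 0.010 from limma). Its arrays did not overlap, but without an array its adjusted p from limma was up to 0.096. DDIT3, which encodes the stress factor CHOP, rose more, with 9.92 and 9.85 against 7.81 and 7.53, a 4.65-fold rise. CHAC1, a glutathione-degrading enzyme counted with them, had 9.30 and 9.38 against 7.41 and 7.53, a 3.66-fold rise. Both genes were in their parental arrays well under every shGFP array. TRIB3, a pseudokinase that restrains ATF4, rose by a log2 difference of 1.36, CEBPB by 0.95, JDP2 by 0.56 and CEBPG by 0.43. ATF5, a factor related to ATF4, went against the list, with 8.11 and 8.26 in shGFP and 8.88 and 8.75 in parental cells, a difference of -0.62 (limma adjusted p = 0.0050, and up to 0.066 without an array).

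Enzymes, transporters and synthetases moved the same way. Among 12 enzymes of amino acid synthesis and folate metabolism 9 rose, with PCK2, the mitochondrial PEP carboxykinase, at a log2 difference of 1.42. The serine synthesis enzymes PSAT1, PHGDH and PSPH differed by 1.17, 0.85 and 0.44, and the mitochondrial folate enzyme MTHFD2 by 0.86. All enzymes of the serine pathway that were measured thus passed the test. CTH and ALDH18A1 differed by 0.01 and 0.02, CTH from a low level at percentiles 36.4 and 36.0 of the genes in shGFP and parental cells. Of 9 amino acid transporters 6 rose, SLC43A1, which carries large neutral amino acids, by 1.69, the glycine transporter SLC6A9 by 0.84 and the neutral amino acid exchanger SLC1A4 by 0.83. SLC7A5 and SLC3A2, which pair as the main leucine carrier, and SLC1A5, a glutamine carrier, did not pass the test.

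Stress regulators and secreted proteins of the list included DDIT4, an inhibitor of mTORC1 signaling, with 11.14 and 11.08 in shGFP and 9.01 and 8.88 in parental cells, a 4.48-fold rise. SESN2, a leucine sensor upstream of mTORC1, had 8.81 and 8.76 against 7.96 and 7.81, a difference of 0.90. The hormone STC2 rose by 1.36, the activin subunit INHBE by 1.27, a lower bound for its dim parental level, and the cytokine GDF15 by 0.93. In all, 8 of 9 such genes rose. Among the 11 synthetases placed in the ATF4 list, 10 rose, from 0.32 for WARS1 to 0.89 for SARS1, and GARS1 rose by 0.78. The 8 measured synthetases outside that list behaved differently in their counts: 3 fell, or 37.5% against 7.44% of all genes, and none rose. By limma's unadjusted p at 0.05, 1 of the 8 was higher. Those that fell were KARS1 with -0.71, VARS1 with -0.44 and FARSA with -0.39. No test of the difference between both sets was run.

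**Figure D1:**
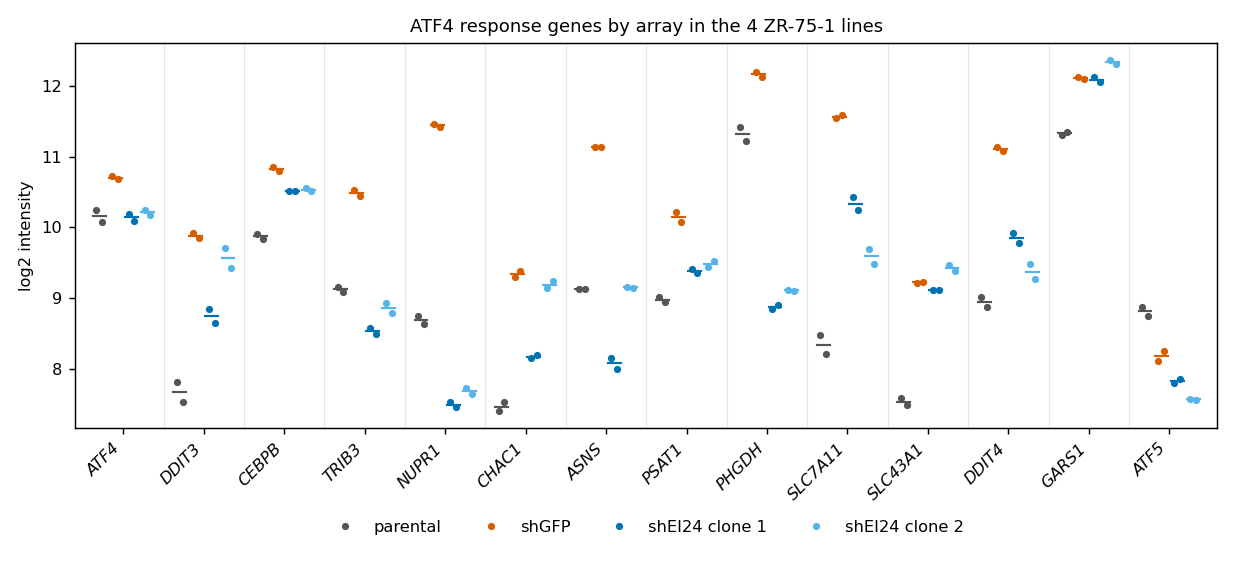
Log2 intensity (vertical axis) of 14 ATF4 response genes (horizontal axis) in parental, shGFP, shEI24 clone 1 and shEI24 clone 2 cells. Each dot is an array and each bar the mean of a line: shGFP lies above parental cells in every gene shown except ATF5, as with NUPR1 at 11.46 and 11.42 against 8.75 and 8.64.

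The plot of ATF4 genes by array also shows where the shEI24 clones lay. Both shGFP arrays were above all 6 other arrays of the series for 39 of the 52 genes, against 11.6% of all genes, and both parental arrays were below all 6 others for 18, against 6.92%. The mean of the 2 clones was lower than shGFP in 40 of the 52 genes and higher in 4, where 29.0% and 26.8% of all genes were lower and higher. Against parental cells it was higher in 21 and lower in 26, with 25.1% and 30.8% of all genes. These comparisons share arrays, so their counts are not independent of each other. For SLC7A11 the log2 difference of the clones was -1.61 from shGFP and 1.61 from parental cells, for DDIT3 it was -0.73 and 1.48, and for CHAC1 -0.66 and 1.21. For ASNS it was -2.52 and -0.51, and for NUPR1 -3.85 and -1.1. The sign of the clones against a control thus depended on the control for SLC7A11, DDIT3 and CHAC1, and not for ASNS and NUPR1.

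Sensors upstream of this response and genes of the endoplasmic reticulum gave a mixed picture. Of 11 sensing kinases and their regulators 3 fell, or 27.3% against 7.44% of all genes. They were the leucine sensor relative SESN3 by -0.97, the arginine sensor CASTOR1 by -0.47 and MTOR by -0.45. None of the 11 rose in limma, also at an unadjusted p under 0.05. EIF2S1, the eIF2α gene, and the lysosomal arginine sensor SLC38A9 changed least among members above the median gene over all 8 arrays, the set from which such genes are named in every list. Of 20 chaperones and unfolded protein response genes, 4 rose and 3 fell, or 20.0% and 15.0%, against 3.21% and 7.44% of all genes. HERPUD1, which serves degradation at the endoplasmic reticulum, had 10.43 and 10.38 in shGFP and 9.71 and 9.67 in parental cells, a difference of 0.72 (adjusted p = 0.0021 from limma). The stress factor XBP1 rose by 0.59 and the sensors ERN1 and ATF6 by 0.44 and 0.41. The chaperone HSPA5, or BiP, fell by 0.40, as did CRELD2. Over the 4 lists of amino acid stress, 45 of 91 genes rose and 10 fell. Without parental #1, parental #2, shGFP #1 and shGFP #2 in turn, 34, 34, 28 and 29 of the 91 were called, and 25 of the 41 ATF4 genes that rose kept their call without each of the arrays. Among them were SLC7A11, NUPR1, DDIT3, DDIT4, ASNS, CHAC1, TRIB3, PSAT1 and PHGDH.

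**Figure D2:**
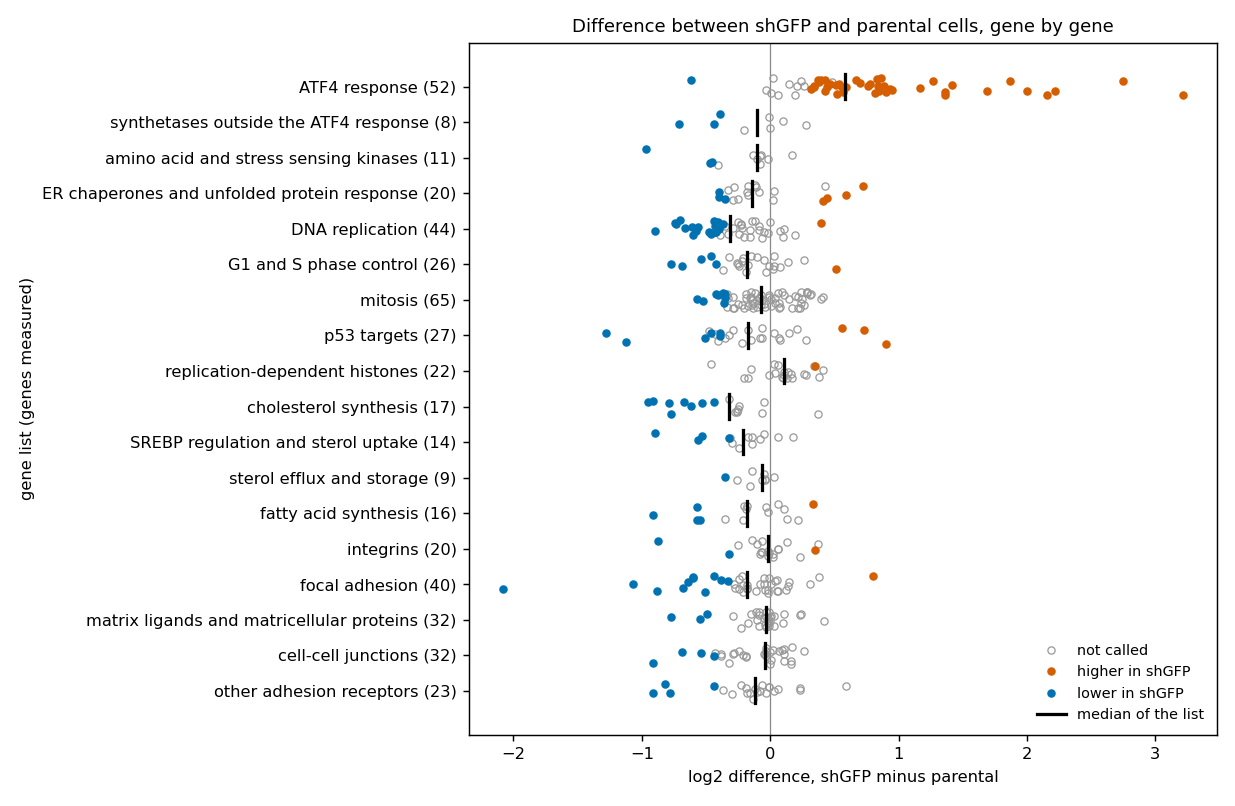
Log2 difference of shGFP minus parental cells (horizontal axis) for each measured gene of the 18 lists of amino acid stress, cell cycle, sterol and adhesion genes (vertical axis, number measured in brackets). Filled dots passed the test, orange where higher and blue where lower in shGFP, open dots did not, and black bars mark the medians: they lie at 0.58 for the ATF4 response, -0.31 for DNA replication and -0.32 for cholesterol synthesis.

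Genes of DNA replication were lower in shGFP cells, by less than 2-fold each. Of 44 measured genes, 19 fell and 1 rose, against 7.44% lower and 3.21% higher over all genes, and the median log2 difference was -0.31. GINS4, a subunit of the replicative helicase, had log2 values of 7.88 and 7.71 in shGFP and 8.75 and 8.64 in parental cells, a difference of -0.90 (standard error 0.09, adjusted p = 0.0011 from limma). MCM5, which belongs to the MCM ring of the same helicase, had 9.96 and 9.92 against 10.71 and 10.57, a difference of -0.70. Every shGFP array lay under both parental arrays for these genes. The DNA polymerase subunit POLD1 differed by -0.74, DNA ligase LIG1 by -0.73 and the initiation factor MCM10 by -0.66. By role, 6 of 13 licensing genes, 10 of 25 fork and polymerase genes and 3 of 6 genes of nucleotide supply fell. PRIM1, the small primase subunit, was the exception, with 11.13 in each shGFP array and 10.81 and 10.66 in parental cells, a difference of 0.40 (limma adjusted p = 0.030, and up to 0.19 without an array). RFC3 and DUT, bright members, changed least.

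The other cell cycle lists moved less. Of 26 genes of G1 and S phase control, 5 fell and 1 rose, or 19.2% and 3.85%, against 7.44% and 3.21% of all genes. CCND3, cyclin D3, had 9.68 and 9.72 in shGFP and 10.54 and 10.42 in parental cells, a difference of -0.77 (adjusted p = 0.0017 from limma), and the phosphatase CDC25A differed by -0.69. MYC rose, with 11.93 and 11.89 against 11.43 and 11.38, a difference of 0.51 (limma adjusted p = 0.0065, and up to 0.078 without an array). The S phase factor MYBL2 differed by -0.54 and the CDK inhibitor CDKN1A by -0.46. Of 65 mitotic genes, 8 fell, the mitotic entry factor CDCA3 by -0.57, the mitotic transcription factor FOXM1 by -0.52 and CENPN by -0.42, while none rose and 4 were higher by limma's unadjusted p at 0.05. BIRC5 and CDCA5 changed least. Among 22 replication-dependent histone genes only H2AC6 passed, or 4.55%, near the 3.21% of all genes that rose. Its difference was 0.35, and its near-identical paralogs may share its probes. For 35 of 56 mitotic promoters, or 62.5%, the letters TTTGAA of the cell cycle homology region were found on either strand, against 11.9% of promoters of measured genes. For 17 of 39 replication promoters, or 43.6%, the E2F letters GCGGGAA were found, against 8.95%. Of the 15 replication genes with a promoter that fell, 5 held the E2F letters.

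Targets of p53, a list that holds EI24, went both ways, with 6 of 27 lower and 3 higher. This was 22.2% and 11.1%, against 7.44% and 3.21% of all genes. PLK2, a polo-like kinase, had 8.13 and 7.89 in shGFP and 9.36 and 9.21 in parental cells, a difference of -1.28 (standard error 0.11, adjusted p = 0.00043 from limma). TIGAR, a regulator of glycolysis, had 7.66 and 7.60 against 8.83 and 8.67, a difference of -1.12. PMAIP1, the NOXA gene, rose by 0.73, SESN2 by 0.90 and GADD45A by 0.56. Among the genes that rose, SESN2 is counted in the ATF4 list too. What raised these genes was not tested. MDM2 and TRIAP1 were bright and changed least. Over all 5 cell cycle lists, 37 of 183 genes fell and 6 rose, or 20.2% and 3.28%. Without parental #1, parental #2, shGFP #1 and shGFP #2 in turn, 15, 23, 16 and 9 were called. Of the replication genes, GINS4, LIG1, MCM5 and MCM10 kept their call without each of the arrays. In 34 of 44 replication genes, or 77.3%, both parental arrays were above all 6 other arrays, against 15.6% of all genes. The mean of the clones was lower than shGFP in 41 of the 44, where 29.0% of all genes were.

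Genes of cholesterol synthesis were lower in shGFP cells at several steps of the pathway. Of 17 measured enzymes 8 fell and 9 did not pass the test, against 7.44% of all genes lower, and 1 was higher by limma's unadjusted p at 0.05. The median log2 difference was -0.32. LSS, lanosterol synthase, had log2 values of 8.66 and 8.72 in shGFP and 9.72 and 9.58 in parental cells, a difference of -0.95 or 1.94-fold (standard error 0.09, limma adjusted p = 0.00075). MVD, which makes isopentenyl pyrophosphate, had 9.05 and 8.99 against 10.00 and 9.85, a difference of -0.91. Both genes sat lower in each shGFP array than in either parental array. ACAT2, the thiolase at the entry of the pathway, differed by -0.79, HMGCS1, HMG-CoA synthase, by -0.77 and mevalonate kinase MVK by -0.67. SC5D and PMVK, bright enzymes, changed least.

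Regulators of SREBP and sterol uptake fell in 4 of 14 genes, or 28.6% against 7.44% of all genes. INSIG1, the sterol-dependent anchor of SCAP and itself an SREBP target, had 9.66 and 9.55 in shGFP and 10.57 and 10.44 in parental cells, a difference of -0.90 (adjusted p = 0.0021 from limma). The sterol carrier STARD4 differed by -0.56, the SREBP protease MBTPS1 by -0.53 and SCAP by -0.32, while INSIG2 and NPC2 changed least. Of 9 genes of efflux and storage 1 fell, or 11.1%, near the 7.44% of all genes: SOAT1, which makes cholesterol esters, by -0.35. OSBP and ABCA2 changed least. Of 16 genes of fatty acid synthesis 4 fell and 1 rose. ACACB, the mitochondrial acetyl-CoA carboxylase, had 8.27 and 8.21 against 9.19 and 9.11, a difference of -0.91, ATP citrate lyase ACLY and fatty acid synthase FASN each differed by -0.57 and malic enzyme ME1 by -0.55. The desaturase FADS1 went the other way, with 10.78 and 10.76 against 10.47 and 10.41, a difference of 0.33 (adjusted p = 0.038 from limma). ELOVL5 and TMEM97 changed least, the latter counted in this list though it is not an enzyme of fatty acid synthesis.

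**Figure D3:**
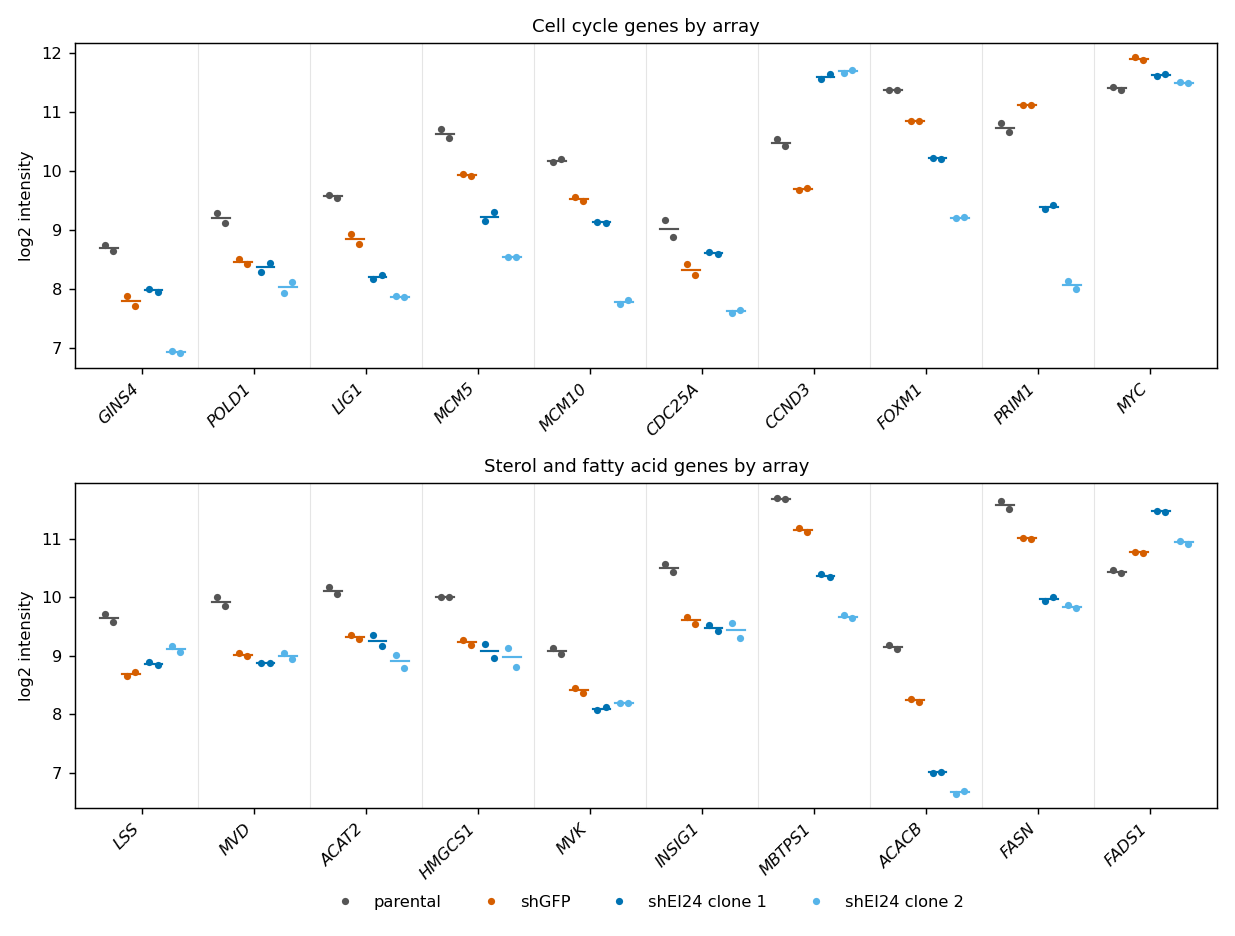
Log2 intensity (vertical axes) of 10 cell cycle genes (upper panel) and 10 sterol and fatty acid genes (lower panel) in parental, shGFP, shEI24 clone 1 and shEI24 clone 2 cells. Each dot is an array and each bar the mean of a line: parental cells lie above shGFP in all genes shown except PRIM1, MYC and FADS1, as with LSS at 9.72 and 9.58 against 8.66 and 8.72.

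In the plot of sterol genes by array the shEI24 clones can be read against both controls. Over the 17 enzymes of cholesterol synthesis the median log2 difference of the clones was -0.28 from shGFP and -0.99 from parental cells, with 10 lower and 2 higher in the former and 14 lower in the latter. The mean of the clones was below parental cells by -0.66 for LSS, -0.99 for MVD, -0.97 for HMGCS1 and -1.05 for INSIG1. Against shGFP the same genes gave 0.30, -0.08, -0.20 and -0.15. In 14 of the 17 enzymes, or 82.4%, both parental arrays were above all 6 other arrays, against 15.6% of all genes. ACACB and FASN fell in the clones also against shGFP, by 1.40 and 1.1. These values share the shGFP and parental arrays with the ones above. The letters TCACNCCAC of a sterol regulatory element were found in none of 15 promoters of the synthesis enzymes and in 1 of 13 promoters of the regulators, against 1.14% of promoters of measured genes, which says only that these letters are rare in these windows. The NF-Y letters CCAAT were found in 11 of the 15, or 73.3%, against 36.3%. Over the 4 sterol lists 17 of 56 genes fell and 1 rose, or 30.4% and 1.79%, against 7.44% and 3.21% of all genes. Without parental #1, parental #2, shGFP #1 and shGFP #2 in turn, 8, 11, 7 and 5 were called. LSS, MVD, MVK, INSIG1 and ACACB kept their call without each of the arrays, and HMGCS1 had an adjusted p of up to 0.078.

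Most adhesion genes that passed the test fell, and 11 of the 24 falls were in the focal adhesion list. Of 40 measured focal adhesion genes, 11 fell and 1 rose, against 7.44% and 3.21% of all genes, and the median log2 difference was -0.18. CAV1, caveolin 1 (chromosome 7, 116525009 to 116561185), had log2 values of 5.91 and 6.23 in shGFP and 8.17 and 8.13 in parental cells, a difference of -2.08 (standard error 0.13, adjusted p = 8.2e-05 from limma). FERMT1, kindlin 1, which activates integrins, had 6.98 and 7.01 against 8.03 and 8.10, a difference of -1.07. Both genes were lower in each shGFP array. Between the means of the lines CAV1 differed 4.23-fold, a lower bound only in that its shGFP level was dim. The adaptor BCAR1, or p130Cas, differed by -0.88 and the actin crosslinker ACTN1 by -0.68. TES, a LIM protein of focal adhesions, rose, with 10.65 and 10.61 against 9.93 and 9.73, a difference of 0.80 (adjusted p = 0.0017 from limma). TNS3 and LIMS1 changed least.

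Of 20 integrin subunits 2 fell and 1 rose, or 10.0% and 5.0%, near the 7.44% and 3.21% of all genes. ITGB5, which pairs with αv, had 10.14 in each shGFP array and 11.03 and 10.99 in parental cells, a difference of -0.87 (adjusted p = 0.00068 from limma). The laminin receptor subunit ITGA3 differed by -0.32 and the collagen receptor subunit ITGA2 rose by 0.35, while ITGB1 and ITGA5, the latter dim in both lines at percentiles 43.5 and 43.1, changed least. Of 32 matrix genes 3 fell, or 9.38%, near the 7.44% of all genes. They were THBS1, which encodes thrombospondin 1, by -0.77, the integrin ligand EDIL3 by -0.55 and fibronectin FN1 by -0.49. In limma no matrix gene rose, and 2 were higher at an unadjusted p under 0.05. The laminin chains LAMA5 and LAMB3 changed least, LAMB3 from a low level at percentiles 28.8 and 28.9. Of 32 genes of cell-cell junctions 4 fell, or 12.5% against 7.44% of all genes. CLDN1, a tight junction claudin, had 6.24 and 6.62 in shGFP and 7.45 and 7.23 in parental cells, a difference of -0.91. MARVELD3, another tight junction protein, differed by -0.69, NECTIN2 by -0.54 and CDH11 by -0.44. EPCAM and CLDN4 changed least, and 1 junction gene was higher at an unadjusted p under 0.05. Of 23 other adhesion receptors 4 fell, or 17.4%. The hyaluronan receptor CD44, with 8.37 and 8.27 against 9.32 and 9.13, differed by -0.91. The poliovirus receptor PVR differed by -0.82, ALCAM by -0.78 and L1CAM by -0.44, whereas SDC1 and MCAM changed least.

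**Figure D4:**
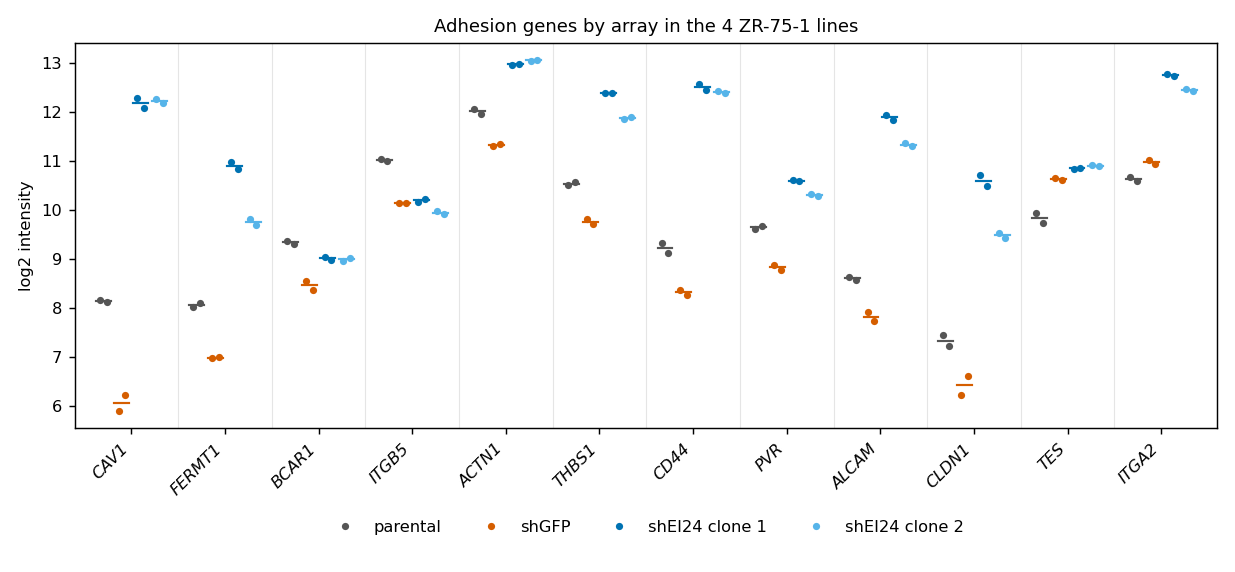
Log2 intensity (vertical axis) of 12 adhesion genes (horizontal axis) in parental, shGFP, shEI24 clone 1 and shEI24 clone 2 cells. Each dot is an array and each bar the mean of a line: shGFP lies below parental cells in all genes shown except TES and ITGA2, and the mean of the clones lies above both lines in all except BCAR1 and ITGB5.

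In the plot of adhesion genes by array, several genes that fell in shGFP cells lay highest in the clones. The mean of the clones lay above shGFP by 6.13 and above parental cells by 4.05 for CAV1, by 3.34 and 2.27 for FERMT1, by 4.14 and 3.23 for CD44 and by 3.61 and 2.7 for CLDN1. For BCAR1 the clones lay above shGFP by 0.54 and below parental cells by -0.34, so the sign turned with the control. Both shGFP arrays were below all 6 other arrays in 20 of 40 focal adhesion genes, against 13.8% of all genes. These differences share the shGFP arrays with the comparison above. Over the 5 adhesion lists 24 of 147 genes fell and 2 rose, or 16.3% and 1.36%, against 7.44% and 3.21% of all genes. Without parental #1, parental #2, shGFP #1 and shGFP #2 in turn, 13, 18, 13 and 12 were called. CAV1, FERMT1, BCAR1, ITGB5, CD44, PVR, ALCAM and TES kept their call without each of the arrays, and CLDN1 did not.

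A hairpin can itself be sensed as double-stranded RNA, so the genes of that response and of hairpin processing were examined. Of 39 interferon-stimulated and sensing genes, 4 fell and 2 rose, or 10.3% and 5.13%, near the 7.44% and 3.21% of all genes. IFI44L had log2 values of 5.53 and 5.52 in shGFP and 6.72 and 6.62 in parental cells, a difference of -1.14 that is a lower bound in size for its dim level in shGFP (adjusted p = 0.0016 from limma). HERC5, an ISG15 ligase, differed by -0.73 and SAMD9 by -0.62. IFI6, with 9.08 and 8.75 against 8.24 and 7.95, rose by 0.82 and BST2, or tetherin, by 0.61. Of 13 genes of hairpin and miRNA processing 2 fell, or 15.4%: the Argonaute genes AGO1 by -0.38 and AGO2 by -0.37. None of the 13 rose in limma, also at an unadjusted p under 0.05, and neither Argonaute call was kept without each of the arrays.

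Of 24 luminal genes 5 rose and 2 fell, or 20.8% and 8.33%, against 3.21% and 7.44% of all genes, with the ETS factor EHF higher by 1.2 and the receptor ERBB4, with 10.63 and 10.67 in shGFP and 9.58 and 9.56 in parental cells, higher by 1.08 (adjusted p = 0.00022 from limma). The ETS factor ELF3 fell by 0.77 and keratin KRT19 by 0.39. Of 24 estrogen receptor targets 4 rose and 5 fell, or 16.7% and 20.8%. STC2, which is also in the ATF4 list, rose by 1.36 and the cytokine IL20 by 1.19, while carbonic anhydrase CA12 differed by -1.21, the potassium channel KCNK5 by -1.14 and the steroid receptor cochaperone FKBP4 by -0.86. Of 21 genes of TGF-β, BMP and ID signaling, 4 rose and 4 fell, or 19% each way. The receptors TGFBR3 and TGFBR2 differed by -1.05 and -1.04 and the ligand TGFB1 by -0.79, whereas BMP7 rose by 0.96 and TGFB2 by 0.76.

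Heat shock and antioxidant genes fell where they passed the test, with SLC7A11 as the exception. Of 10 heat shock genes 5 fell, against 7.44% of all genes, HSPH1, a cochaperone of the HSP70 family, with 10.38 and 10.29 in shGFP and 11.20 and 11.21 in parental cells, by -0.87 (adjusted p = 0.0017 from limma). DNAJA1 differed by -0.73, DNAJB1 by -0.58 and BAG3 by -0.48, and 1 of the 10 genes lay above 0. Of 21 NRF2 and antioxidant genes 6 fell, or 28.6%, GCLM by -0.74, HMOX1 by -0.58 and SRXN1 by -0.50, and the single gene that rose was SLC7A11, which is counted in the ATF4 list too. Of 31 genes of hypoxia and glycolysis 5 rose, VEGFA by 0.70 and PDK1 by 0.64, and 8 fell, which was 16.1% and 25.8% against 3.21% and 7.44% of all genes, the glucose transporter SLC2A3 by -0.63. Of 26 immediate early and feedback genes 3 rose and 2 fell, or 11.5% and 7.69%, JUN by 0.91 among the former and FOS by -0.78 among the latter. Of 24 NF-κB and inflammatory genes 2 fell, or 8.33%, near the share of all genes, CCL2 by -0.54 and NFKBIE by -0.36, and 1 was higher at an unadjusted p under 0.05. Of 15 EMT genes the only calls were FN1 and CDH11, named above, which fell, or 13.3% against 7.44% of all genes. Of 12 genes of TNF receptor Complex I and EI24 the only call was IKBKG, by -0.37, or 8.33%. Among 9 metallothioneins measured, 22.2% rose, against 3.21% of all genes. They were MT1F by 0.44 and MT1E by 0.43, whose near-identical paralogs may share probes.

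Markers of other cell types hardly differed between the lines. Of 32 basal, fibroblast, leukocyte and endothelial markers, 1 fell, or 3.12% against 7.44% of all genes, and none rose. It was ACTA2, with a difference of -0.38. Below the median gene of their line, in shGFP and parental cells alike, lay 4 of 5 basal, 9 of 10 fibroblast, 9 of 10 leukocyte and 7 of 7 endothelial genes.

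The calls were unevenly spread over the chromosomes, a pattern that was looked for after the values were seen. On chromosome 19, 225 of 1309 genes, or 17.2%, were lower in shGFP cells, and on chromosome 16 it was 94 of 759, or 12.4%, against 7.44% of all genes. On the other chromosomes the share ran from 4.69% to 8.27%. On the long arm of chromosome 19, where the genes start between 28435388 and 58575399 in GRCh38.p14, 167 of 732 genes fell and 2 rose, with a median log2 difference of -0.13. The shGFP arrays were at -0.15 and -0.11 and the clones at -0.02 and 0.05 there, all as medians against parental cells. Glycogen synthase GYS1, with 9.13 and 9.09 in shGFP and 10.21 and 10.17 in parental cells, and the corepressor TRIM28, with 11.15 and 11.13 against 12.17 and 12.09, were among those that fell. Both genes lay lower in each shGFP array by about the same amount. Of the genes described above, ATF5, LIG1, POLD1, PVR, NECTIN2 and TGFB1, which fell, also lie on this arm, as does CEBPG, which rose. Whether their position bears on their change was not tested. Without parental #1, parental #2, shGFP #1 and shGFP #2 in turn, 78, 118, 73 and 51 genes of the arm were lower.

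In the zinc finger cluster of 19p12, with starts between 20078000 and 24033449, the direction was the opposite. Of 31 genes 10 rose, or 32.3% against 3.21% of all genes, and none fell. The median was 0.41 in shGFP cells, while both clones were at -0.77. These genes are near-identical in part, so their probes may not separate them. Without the same arrays in turn 4, 6, 3 and 2 were called. In a stretch of 16q23, with starts between 74447440 and 75647773, 11 of 18 genes fell, or 61.1% against 7.44% of all genes, and none rose. The median was -0.44 in shGFP cells and -0.74 and -0.62 in the clones. The bounds of both stretches were set with the values known, so their shares are descriptions. The 16q23 stretch holds KARS1 and BCAR1, the synthetase and the focal adhesion adaptor described above. It also holds ZNRF1, a ubiquitin ligase, and MLKL, an effector of necroptosis, which differed by -0.80 and -0.84. Without the same arrays in turn 5, 6, 5 and 3 of its genes were called. On the long arm of chromosome 16 as a whole 16.6% of genes fell and 2.01% rose. MVD, MBTPS1, CENPN and MARVELD3, among the falls, and HERPUD1, among the rises, lie on it outside the stretch. DNA copy number was not measured, and whether it differs between the lines was not tested.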

How the data were processed

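RNA of ZR-75-1 cells was hybridized to 8 Affymetrix arrays, 2 for each of 4 lines, and the labels gave each array its line and number. Per transcript cluster and array the authors deposited a log2 intensity, for which their processing notes list GCOS and RMA. For both, a version was not given in the sources used here. Since RMA quantile-normalizes, arrays share nearly 1 distribution, a change in total RNA cannot be seen, and differences between dim genes are compressed. An exon 1.0 st array is named in the methods, whereas the cluster identifiers matched the annotation of the Human Gene 1.0 ST array.

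Of 33297 clusters 19460 had 1 gene symbol, 1754 several and 12083 none here, and the brightest cluster of each symbol was kept, which gave 18417 genes. A mean per line was fitted over all 8 arrays with limma 3.58.1 in R 4.3.3 (lmFit, eBayes; 4 residual degrees of freedom), and shGFP minus parental was tested with Benjamini-Hochberg adjustment over all genes at 0.05. Tables were made with Python 3.11.15 and pandas 2.3.3. A fold was taken as a lower bound where only the dimmer line lay in the lowest 25% of genes.

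The genes compared and the 36 lists, with 768 measured of 825 genes, were chosen with earlier results of these data known. Named are EI24 and the housekeeping genes, the 12 largest rises and falls with arrays that do not overlap, up to 5 called members of each list and up to 2 against its majority, and up to 2 members that changed least among those above the median gene over all 8 arrays, some of them only through the clones. Other members of the ATF4 list, GYS1, TRIM28, ZNRF1 and MLKL were named after their values were seen. Promoters came from RefSeq and covered 77.3% of genes, too few for a check of GC content, which is void. On simulated data for this comparison, with 200 changed genes among 18417 in 5 draws, the fit recovered 32.4% of log2 changes of 0.5, 78.8% of 1, 86.4% of -1 and 100% of 2, and 3.125% of calls were false. The alternatives were the 4 arrays alone, leaving out a clone or an array, the replicate number as a block, a variance trend, a second quantile normalization, centring, no dim genes, other choices of cluster, a 2-fold threshold and the methods' t-test. Some genes are not analysed here.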

Additional observations from a re-analysis of the deposited data

How the results depend on the processing

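None of the 189 named genes called between shGFP and parental cells changed direction under any alternative, and the 41 with at least a 2-fold difference kept their call without each array. In all 1962 called genes the arrays of both lines did not overlap. Leaving out arrays, a block or another test therefore could not turn a sign, and only normalization, centring and the choice of cluster could. Of the 1962 calls over all genes, 26 in adhesion, 55 in amino acid stress, 43 in the cell cycle and 18 in sterol lists, a 2-fold threshold left 133, 2, 12, 2 and 0. The methods' t-test adjusted over all genes left 11, 0, 1, 1 and 0 calls; without adjustment it gave 4152 over all genes, 49 in adhesion, 86 in the cell cycle and 29 in sterol lists. A variance trend gave 3117 over all genes and 71 in the cell cycle. Leaving out 1 array gave 394 to 854 over all genes, 12 to 18 in adhesion, 28 to 34 in amino acid stress, 9 to 23 in the cell cycle and 5 to 11 in sterol lists, from fewer arrays. The replicate number as a block gave 3436 calls over all genes and 70 in the cell cycle; arrays of the same number deviated together (across genes, r = 0.248 to 0.587 over all 6 pairs of lines and 0.293 between shGFP and parental cells), but no label names a shared batch and there are 2 numbers, so the calls given have no block. Except for leaving out an array, the cause of these changes was not tested. Dim genes limit what can be seen: in the dimmest 25% of genes 1.31% were lower, against 7.44% of all genes.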

Other observations

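Of 175 small nucleolar RNAs 15 rose and 1 fell, or 8.57% and 0.571%, against 3.21% and 7.44% of all genes. Of 20 small nuclear RNAs 4 rose and none fell. Of 634 long noncoding RNAs 3.47% rose, near the share of all genes, and 0.631% fell, while of 16900 protein-coding genes 3.09% rose and 8.04% fell. Small RNAs have few probes and near-identical copies, and whether this moves their values was not tested.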
